A study of Homo sapiens with 132 samples.

Results

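The genes described here are 40 members of the amino acid and endoplasmic reticulum (ER) stress response, out of 65217 gene identifiers counted in every library: ATF4 and its targets, tRNA synthetases, and ER chaperones. They were chosen by symbol, and all 40 symbols matched an Ensembl identifier in the GENCODE 29 names. By role, they were 7 regulators, 6 enzymes of serine, one-carbon and asparagine metabolism, 6 amino acid transporters or transporter subunits, 13 tRNA synthetases and 8 ER chaperones or other genes of the unfolded protein response. The RNA came from 4 established human gastric cancer lines, all derived from metastases: NCI-N87, MKN7, MKN1 and Hs746T. All 132 libraries were poly-A RNA sequencing libraries, 3 for each of 44 conditions, from cells treated for 4 h or 24 h. Cells of every line were left untreated, or treated with the HER2 antibody trastuzumab (Tra, 5 µg/ml), with afatinib (Afa, 0.5 µM), an inhibitor of the HER family kinases, or with both. MKN1 and Hs746T cells were also treated with EGF (5 ng/ml), the EGFR antibody cetuximab (Cet, 1 µg/ml), or both. MKN1, MKN7 and NCI-N87 cells were kept in RPMI and Hs746T cells in DMEM, so Hs746T and its medium cannot be told apart, and afatinib was compared with untreated cells rather than with its solvent.

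When amino acids run short or unfolded proteins collect in the ER, stress kinases phosphorylate eIF2alpha, general protein synthesis drops, and the mRNA of the transcription factor ATF4 is translated more. ATF4 then raises the transcription of genes that make amino acids, import them and charge them onto tRNA. Because ATF4 is controlled largely at translation, its mRNA level is not a measure of its activity. Other arms of the unfolded protein response, through ATF6 and spliced XBP1, raise the transcription of ER chaperones such as HSPA5 (BiP).

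Sequences before the transcription starts are shown because the members are known as targets of a few transcription factors. RefSeq (GRCh38.p14) gave windows of 250 bases before a start for 33 of the 40 members. The core of the C/EBP-ATF response element was searched as TGATGNAA and the ER stress response element as CCAAT and CCACG separated by 9 bases of any kind, on both strands. The first was found for 7 of the 33 members (21.2%), CHAC1, ASNS, SLC1A5, AARS, GARS, IARS and HERPUD1, and for 3.89% of the 27305 genes with such a window. The second was found for 4 of the 33 (12.1%), HSPA5, HSP90B1, XBP1 and CALR, which are 4 of the 8 ER members, and for 0.0916% of all genes. The windows of 3 members with the first motif and 2 with the second follow, 5′ to 3′ along the gene, with the match in capitals.
ASNS, chr7:97872409-97872658, minus strand: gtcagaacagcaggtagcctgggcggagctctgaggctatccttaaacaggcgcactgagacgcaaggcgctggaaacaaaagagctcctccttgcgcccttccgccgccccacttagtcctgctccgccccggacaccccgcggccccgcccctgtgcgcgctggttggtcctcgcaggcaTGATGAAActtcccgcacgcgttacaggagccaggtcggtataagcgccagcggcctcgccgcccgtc
AARS, chr16:70289507-70289756, minus strand: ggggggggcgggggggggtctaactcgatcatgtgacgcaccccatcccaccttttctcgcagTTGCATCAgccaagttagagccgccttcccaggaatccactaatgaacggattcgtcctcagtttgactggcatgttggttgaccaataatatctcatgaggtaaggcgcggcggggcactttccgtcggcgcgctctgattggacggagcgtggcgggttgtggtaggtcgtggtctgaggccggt
IARS, chr9:92293698-92293947, minus strand: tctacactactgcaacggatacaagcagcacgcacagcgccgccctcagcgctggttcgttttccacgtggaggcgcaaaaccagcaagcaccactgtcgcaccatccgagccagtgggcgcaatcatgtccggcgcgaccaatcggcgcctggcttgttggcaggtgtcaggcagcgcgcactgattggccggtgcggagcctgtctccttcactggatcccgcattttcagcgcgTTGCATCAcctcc
HSPA5, chr9:125241344-125241593, minus strand: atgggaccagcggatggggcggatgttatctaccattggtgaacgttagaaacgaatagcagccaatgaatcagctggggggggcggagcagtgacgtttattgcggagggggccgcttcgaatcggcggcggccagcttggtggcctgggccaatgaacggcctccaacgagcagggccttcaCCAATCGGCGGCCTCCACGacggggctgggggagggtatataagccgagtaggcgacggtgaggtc
CALR, chr19:12938359-12938608, plus strand: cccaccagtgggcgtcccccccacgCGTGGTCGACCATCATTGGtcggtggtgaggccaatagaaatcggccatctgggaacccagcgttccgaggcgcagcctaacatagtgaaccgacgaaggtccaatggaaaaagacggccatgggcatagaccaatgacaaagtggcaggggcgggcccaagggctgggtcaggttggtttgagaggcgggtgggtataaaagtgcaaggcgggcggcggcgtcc
The ASNS and HSPA5 matches lay on the strand of the gene and began 68 and 66 bases before the start. The AARS, IARS and CALR matches lay on the opposite strand and began 187, 13 and 225 bases before it. A match describes the letters only, and binding of these factors was not measured.

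Library totals lay between 25832557 and 69434151 counts (median 50725775), and the 40 members together took 0.6% to 1.61% of them. The members XBP1 and ATF5 were listed at 0 in all 132 libraries, as were 1970 of the 19674 protein-coding genes, so their 0 is no measure of expression, and 38 members were tested in every line. DDIT3 overlaps MARS on the opposite strand and the strand setting of the counting is not given in the sources used here, so reads of this overlap cannot be told apart. In untreated cells at 24 h, the epithelial marker CDH1 had a mean level of 264 CPM (counts scaled to a common library total) in MKN7 and 259 CPM in NCI-N87 cells, against 2.54 CPM in MKN1 and 0.846 CPM in Hs746T cells. EPCAM was likewise at 624 and 493 CPM against 23.6 and 31.1 CPM, but the epithelial keratins were not: KRT8 was at 10556 CPM in MKN1, 10751 CPM in NCI-N87, 3347 CPM in MKN7 and 336 CPM in Hs746T cells, and KRT18 and KRT19 were also higher in MKN1 than in MKN7 cells and lowest in Hs746T cells. The mesenchymal marker VIM was at 1653 CPM in Hs746T, 311 CPM in MKN1 and 5.61 CPM or less in the other lines. ZEB1 was at 62.9 CPM in Hs746T, 34 CPM in MKN1, 10.1 CPM in NCI-N87 and 2.53 CPM in MKN7 cells. The other mesenchymal markers did not set MKN1 apart from MKN7 cells. CDH2 was at 78 CPM in Hs746T and 0.763 CPM or less elsewhere, and FN1 at 2499 CPM in Hs746T, 500 CPM in MKN1, 492 CPM in MKN7 and 246 CPM in NCI-N87 cells. Of 5 gastric markers, MUC5AC was at 143 CPM in NCI-N87 cells and 2.96 CPM or less elsewhere, TFF1 and TFF2 were highest in MKN7 (1.57 and 6.35 CPM), and MUC6 and GKN1 were at most at 3.69 and 0.0719 CPM in any line. Levels are CPM after TMM normalization of all libraries together. Differences are log2 fold changes from edgeR with the standard error (SE) and the Benjamini-Hochberg adjusted p over all genes tested, and a member was called higher or lower at an adjusted p below 0.05. Every group held 3 libraries.

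In NCI-N87 cells, most members were lower after 24 h of afatinib. Of the 38 tested, 30 were lower and 0 higher, 15 of them lower by more than 1 on the log2 scale (11.5% of all genes), and the median log2 fold change was −0.90. Of all genes tested in this line, 31.0% were lower and 31.5% higher, with a median of 0.03. Lower were 12 of 13 tRNA synthetases, 5 of 6 transporters, 5 of 7 ER members, 4 of 6 enzymes and 4 of 6 regulators. For 30 members all 3 afatinib libraries lay below all 3 untreated libraries, and for 1, HERPUD1, they lay above, against 31.6% and 35.7% of all genes. With library size as the only normalization, the median of all genes moved to 0.29, and 26 members were lower and 1, HERPUD1, higher (21.9% and 42.2% of all genes).

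**Figure D1:**
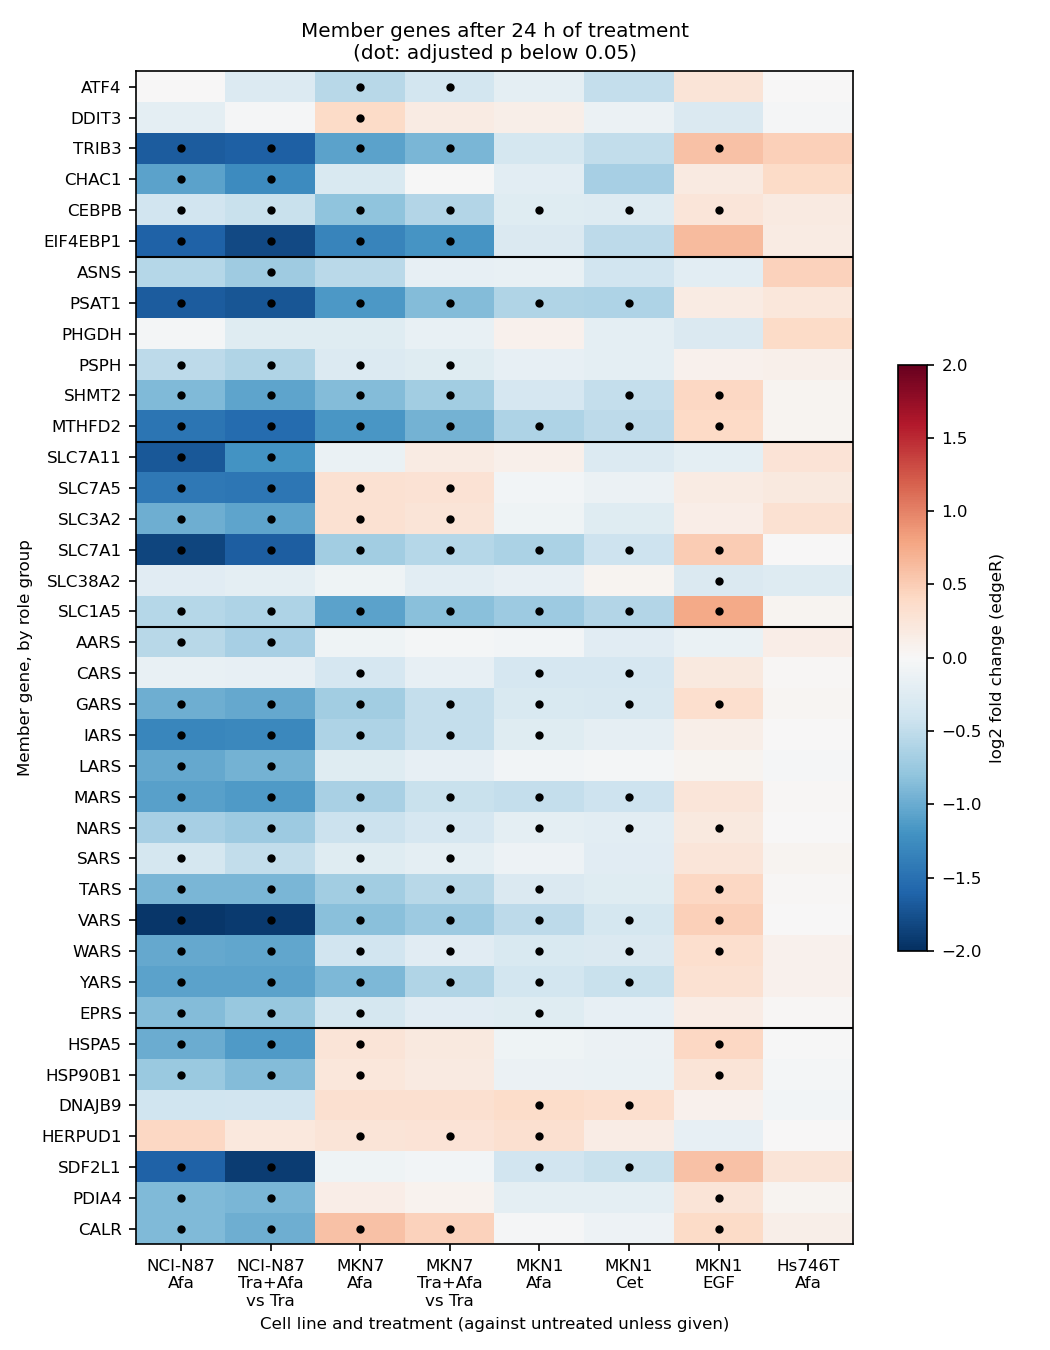
Heat map of log2 fold changes (edgeR, colour scale from −2 to 2) of the 38 tested members in rows, by role group, in 8 comparisons at 24 h in columns, with a dot where the adjusted p is below 0.05. The NCI-N87 columns carry 30 and 31 dots, all on lower members, and the Hs746T column carries 0.

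Among the synthetases, VARS, which charges valine onto its tRNA (ENSG00000204394, chr6:31777518-31795953, minus strand, hg38), had the largest change of all members. VARS was at 189, 196 and 214 CPM in the untreated libraries and at 47.2, 52.6 and 59.1 CPM after afatinib. The groups lay far apart, with a log2 fold change of −1.95 ± 0.10 (SE, adjusted p = 5.23e-13). IARS, the isoleucine enzyme with a motif match above, was at 397, 405 and 473 CPM and at 152, 170 and 203 CPM (log2 fold change −1.31 ± 0.10). All 13 synthetases had a negative value, from −0.15 for CARS, which was not called (adjusted p = 0.198), to −1.95 for VARS. MARS, YARS, LARS and WARS were also lower by more than 1, with −1.08, −1.07, −1.03 and −1.02.

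Among the transporters, SLC7A1, an importer of cationic amino acids, was at 249, 282 and 342 CPM untreated and at 78.9, 80.7 and 89.6 CPM after afatinib (−1.84 ± 0.10, adjusted p = 2.92e-12). SLC7A11, the cystine and glutamate exchanger, was at 111, 163 and 178 CPM and at 37.7, 54.1 and 50.6 CPM (−1.70 ± 0.25). The groups of neither gene overlapped. SLC7A5, which imports leucine and other large neutral amino acids with its partner subunit SLC3A2, had a log2 fold change of −1.43, and SLC3A2 had −0.97. The glutamine importer SLC1A5 had −0.57. SLC38A2, an importer of small neutral amino acids, had −0.22 and was not called (adjusted p = 0.134), but was with the replicate block (adjusted p = 0.0183).

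Among the enzymes, PSAT1, of serine synthesis, was at 122, 142 and 176 CPM untreated and at 33.7, 44.2 and 64.9 CPM after afatinib (−1.66 ± 0.26). MTHFD2, of mitochondrial one-carbon metabolism, was at 80.5, 87.2 and 102 CPM and at 27.9, 32.3 and 40.2 CPM (−1.46 ± 0.16, adjusted p = 7.71e-08). Both separated the groups completely. SHMT2 and PSPH had −0.89 and −0.52. PHGDH, which catalyses the first step of serine synthesis, had −0.04 (adjusted p = 0.898). Asparagine synthetase, ASNS, had −0.57 and missed the threshold (adjusted p = 0.0582), but was called with the replicate block (adjusted p = 3.98e-05).

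ATF4 itself (ENSG00000128272, chr22:39519695-39522685, plus strand, hg38) was at 371, 348 and 406 CPM untreated and at 346, 332 and 475 CPM after afatinib. These groups overlapped, and the log2 fold change was 0.00 with a 95% interval of −0.36 to 0.36. TRIB3, a pseudokinase, was at 24.4, 26.1 and 37.8 CPM and at 6.64, 8.44 and 13.5 CPM (−1.66 ± 0.30). EIF4EBP1, a translation repressor, was at 36.2, 34.8 and 40.8 CPM and at 10.8, 10.2 and 16.3 CPM (−1.62 ± 0.21). Both were lower in every afatinib library. CHAC1, which degrades glutathione, had −1.07, a call that was lost without replicate 1 (adjusted p = 0.0685) and without replicate 2 (adjusted p = 0.0949). CEBPB, which pairs with ATF4, had −0.38, and was not called without replicate 2 (adjusted p = 0.0786). DDIT3 (CHOP), at 3.37 to 4.73 CPM untreated, was not called (−0.20, adjusted p = 0.534).

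Among the ER members, SDF2L1, a cofactor of ER chaperones, was at 34.5, 28.9 and 31.1 CPM untreated and at 10.4, 8.9 and 12.2 CPM after afatinib (−1.62 ± 0.17, adjusted p = 3.02e-08). HSPA5 was at 1161, 1130 and 1276 CPM and at 573, 571 and 697 CPM (−0.99 ± 0.23). Neither overlapped. CALR, PDIA4 and HSP90B1, which fold proteins in the ER, had −0.89, −0.88 and −0.74. DNAJB9, a partner of HSPA5, and HERPUD1, which acts in ER-associated degradation, had −0.40 and 0.42 and were not called, but with the replicate block DNAJB9 was lower (adjusted p = 0.0017) and HERPUD1 higher (adjusted p = 0.00301).

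Tra+Afa against Tra used other libraries of the same line and so gave the afatinib comparison a second time, in the presence of trastuzumab. It was not an independent repeat, because both comparisons came from 1 fit and same-numbered libraries were alike. Deviations from the group mean of same-numbered Tra and untreated libraries at 24 h had correlations of 0.491 to 0.762 in NCI-N87 and 0.773 to 0.879 in MKN7 cells. In NCI-N87 cells at 24 h, 31 members were lower and 0 higher (30.3% and 31.5% of all genes). The 30 members lower after Afa alone were all among them (100% of the first list, 96.8% of the second), with ASNS added (−0.71, adjusted p = 0.0205). VARS was at 169, 188 and 187 CPM with Tra and at 48.2, 48.6 and 48.9 CPM with both, again far apart. With trastuzumab alone, 0 of the 38 members and 0 genes in all were called in each line at each time by edgeR. At most 1 member had an unadjusted p below 0.05 in any of the 8 comparisons. The replicate block was not fitted for these comparisons, so smaller changes within replicates were not tested. In MKN7 cells at 24 h, 27 of the 38 members had a negative value (median −0.12, against 0.00 for all genes). In NCI-N87, MKN1 and Hs746T cells 25, 18 and 16 had one, with medians of −0.02, 0.00 and 0.01. These counts were not tested.

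**Figure D2:**
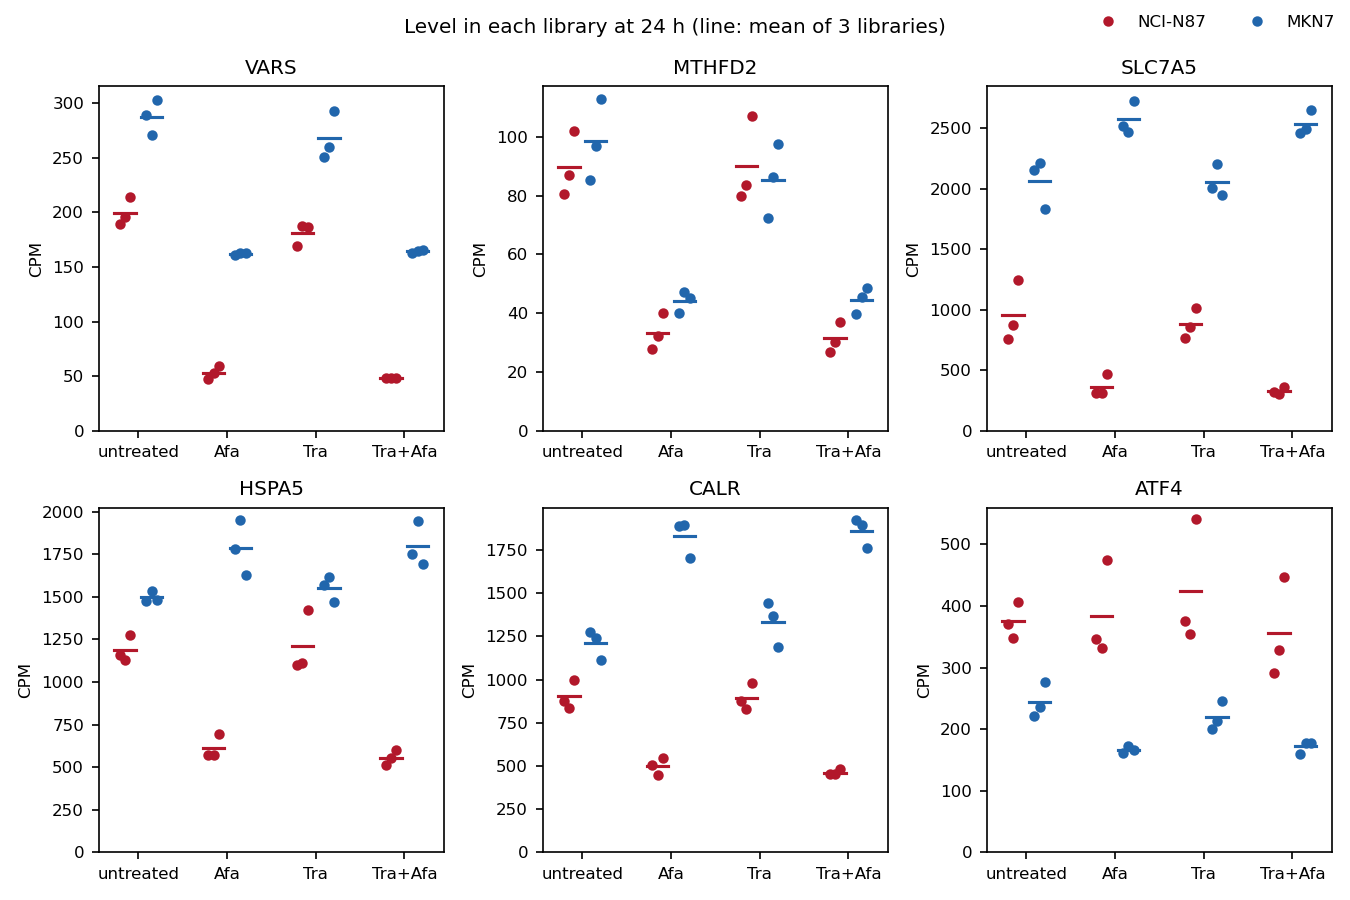
Levels in CPM of 6 members at 24 h in NCI-N87 and MKN7 cells, by treatment, with 1 point per library and a line at the mean of 3. VARS and MTHFD2 were lower with afatinib in both lines, SLC7A5, HSPA5 and CALR lower in NCI-N87 and higher in MKN7 cells, and ATF4 had a log2 fold change of 0.00 in NCI-N87 and −0.56 in MKN7 cells.

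In MKN7 cells, 24 h of afatinib moved members in both directions. Lower were 21 and higher 7, with 5 lower by more than 1 (3.25% of all genes) and a median log2 fold change of −0.35. Of all genes tested in MKN7 cells, 25.0% were lower and 26.6% higher. With library size as the only scaling 18 members were lower and 9 higher (18.4% and 33.2% of all genes). Lower were 11 of 13 synthetases, 4 of 6 enzymes and 4 of 6 regulators, with 1 regulator higher. The transporters split into 2 lower and 2 higher, and of 7 ER members 4 were higher and 0 lower.

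EIF4EBP1 changed most in MKN7 cells, from 194, 174 and 270 CPM to 82.6, 78.5 and 95.6 CPM (−1.32 ± 0.17, adjusted p = 2.13e-06). MTHFD2 was at 85.3, 97 and 113 CPM untreated and at 40, 47.4 and 45.2 CPM after afatinib (−1.16 ± 0.11). PSAT1 was at 97, 130 and 141 CPM and at 42.3, 62.2 and 61.7 CPM (−1.15 ± 0.21). None of these groups overlapped. TRIB3 was at 50.6, 46.8 and 64.2 CPM and at 23.6, 24.9 and 28.6 CPM (−1.07 ± 0.15). SLC1A5 was at 129, 157 and 184 CPM and at 62.8, 82.3 and 80 CPM (−1.07 ± 0.17). Both were lower in every afatinib library. The synthetase with the largest change was YARS, for tyrosine, at 199, 245 and 259 CPM and 111, 142 and 127 CPM (−0.90 ± 0.13), followed by VARS with −0.83. ATF4 mRNA was at 221, 236 and 276 CPM and at 162, 172 and 166 CPM, separate groups (−0.56 ± 0.09, adjusted p = 3.05e-05).

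The 7 members higher in MKN7 cells were CALR, DDIT3, SLC7A5, SLC3A2, HERPUD1, HSPA5 and HSP90B1. CALR (calreticulin, ENSG00000179218, chr19:12938578-12944489, plus strand, hg38) was at 1274, 1241 and 1114 CPM untreated and at 1891, 1894 and 1705 CPM after afatinib (0.59 ± 0.10, adjusted p = 2.87e-05). SLC7A5 was at 2155, 2209 and 1833 CPM and at 2521, 2473 and 2728 CPM (0.31 ± 0.09), and HSPA5 at 1477, 1535 and 1479 CPM and at 1782, 1953 and 1629 CPM (0.25 ± 0.09). The groups of these 3 did not overlap, with changes well below 1. CALR was called in every other fit tried at this threshold. SLC7A5 and SLC3A2 were not called without replicate 3 (adjusted p = 0.162 and adjusted p = 0.054), and HSPA5, HSP90B1 and HERPUD1 were not called without replicate 1 (adjusted p = 0.134, adjusted p = 0.287 and adjusted p = 0.0817) or replicate 2. DDIT3, at 1.43 to 1.74 CPM untreated, was not called when any 1 of the 3 replicates was left out.

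For Tra+Afa against Tra in MKN7 cells at 24 h, 19 members were lower (21.6% of all genes) and 4 higher (22.8%). The 19 lower members were all among the 21 lower after Afa alone (90.5% of the 21), and the 4 higher, CALR, SLC7A5, SLC3A2 and HERPUD1, were among the 7 higher (57.1%). On library size alone these counts were 15 and 8 (15.4% and 29.8% of all genes).

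**Figure D3:**
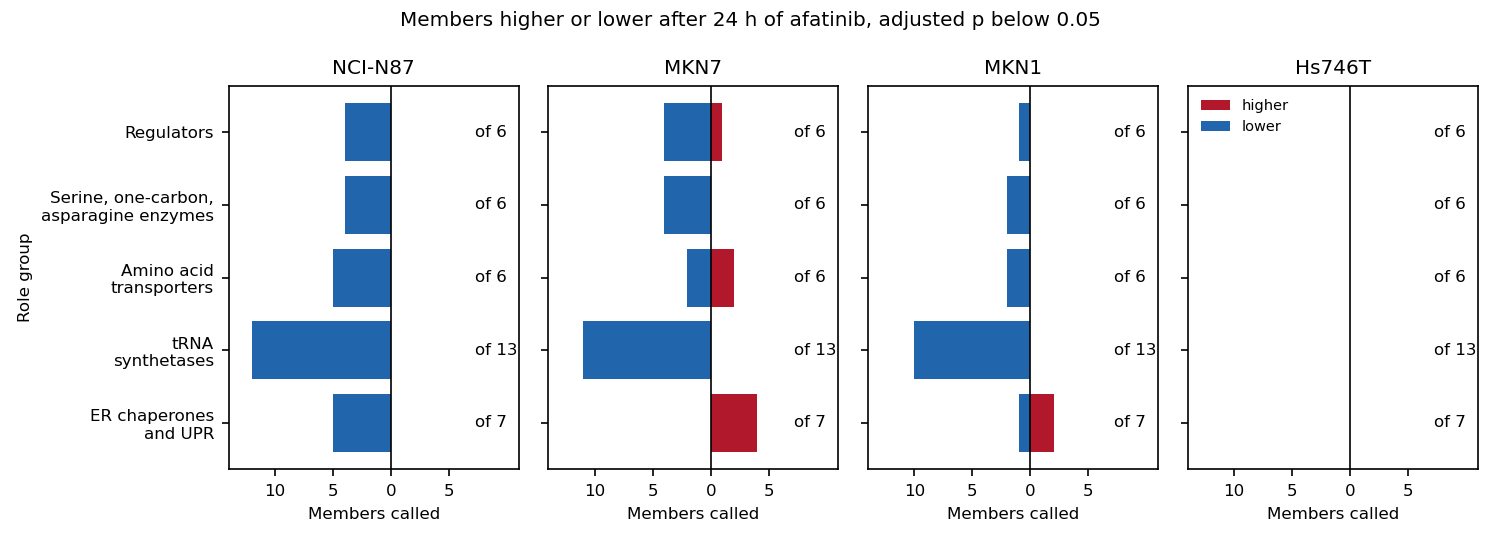
Number of members called higher (right, red) or lower (left, blue) after 24 h of afatinib at an adjusted p below 0.05, by role group in rows and cell line in panels, with the number tested at the right. The tRNA synthetases have 12, 11, 10 and 0 lower members of 13 in NCI-N87, MKN7, MKN1 and Hs746T cells, and the ER members 5 lower in NCI-N87 and 4 higher in MKN7 cells.

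Whether NCI-N87 and MKN7 cells differed in their response to 24 h of afatinib was tested as an interaction in a fit of all libraries. The response was lower in NCI-N87 cells for 15 members (12.7% of all genes) and higher for 1, SLC1A5 (0.53; 8.69% of all genes). With the replicate block these counts were 25 and 4 (22.2% and 16.2% of all genes), and on library size alone 14 and 3 (9.58% and 11.5%). In the fit without the block, the 15 were 6 of 7 ER members, 5 of 13 synthetases and 4 of 6 transporters, with 0 enzymes and 0 regulators. This split by role did not hold with the block, whose calls went beyond these 3 groups and took in the regulator ATF4. All 5 members that were lower in NCI-N87 and higher in MKN7 cells differed: SLC7A5 (−1.71 ± 0.22, adjusted p = 1.19e-09), CALR (−1.45 ± 0.14), SLC3A2 (−1.24 ± 0.16), HSPA5 (−1.21 ± 0.18) and HSP90B1 (−0.93 ± 0.18). SLC7A11 and SDF2L1, lower in NCI-N87 cells and not called in MKN7 cells, differed by −1.53 and −1.51. VARS and SLC7A1, lower in both lines, differed by −1.09 and −1.13. For the enzyme MTHFD2 the 95% interval of the difference ran from −0.69 to 0.15. ATF4 had a difference of 0.58 (adjusted p = 0.12), called with the replicate block (adjusted p = 3.7e-05).

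In MKN1 cells, afatinib gave changes below 1 on the log2 scale in all members at 24 h. Lower were 16 and higher 2, DNAJB9 (0.37) and HERPUD1 (0.32), against 13.3% and 12.2% of all genes, with a member median of −0.21. The synthetases made up 10 of the 16. On library size alone 8 were lower and 2 higher (8.86% and 16.3% of all genes). In all, 6 members were called without replicate 1 and 4 without replicate 3.

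SLC1A5 was at 96.7, 102 and 124 CPM in untreated MKN1 cells and at 61.9, 77.7 and 57.9 CPM after afatinib (−0.73 ± 0.09, adjusted p = 5.68e-07). SLC7A1 was at 180, 167 and 225 CPM and at 140, 121 and 113 CPM (−0.63 ± 0.13). MTHFD2 was at 77, 82.9 and 81.7 CPM and at 55.4, 64.7 and 40.3 CPM (−0.61 ± 0.13). The groups of all 3 were separate. PSAT1 was at 239, 277 and 250 CPM and at 167, 221 and 123 CPM (−0.60 ± 0.17). VARS was at 205, 185 and 226 CPM and at 148, 155 and 127 CPM (−0.53 ± 0.08). MARS, for methionine, was at 271, 296 and 285 CPM and at 203, 243 and 175 CPM (−0.47 ± 0.10). Replicate 3 was the lowest of the afatinib libraries for all 6 of these members. ATF4 was at 209, 288 and 225 CPM and at 183, 283 and 173 CPM, overlapping groups (−0.19, adjusted p = 0.579).

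For Tra+Afa against Tra in MKN1 cells, 17 members were lower and 1, DNAJB9, was higher (14.9% and 12.9% of all genes). Of the 17 lower members, 14 were also lower after Afa alone (82.4% of the 17, 87.5% of the 16). On library size alone 9 were lower and 2 higher (8.09% and 21.8% of all genes), and 9 and 6 members were called without replicate 1 and replicate 3. Against MKN1 cells, the afatinib response of NCI-N87 cells was lower for 25 members and higher for 0 (15.9% and 12.1% of all genes). Between MKN7 and MKN1 cells the response was lower in MKN7 cells for EIF4EBP1 (−1.04) and TARS (−0.41) and higher for CALR (0.61), against 3.94% and 3.67% of all genes. These 3 of 38 members were a share near that of all genes called in either direction (7.61%). With library size alone 2 were lower and 2 higher (3.42% and 3.93% of all genes). The count of 3 became 23 with the replicate block (13.4% of all genes lower and 12.2% higher) and 1, 1 and 0 without replicate 1, 2 and 3.

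The members lower at 24 h of afatinib in NCI-N87, MKN7 and MKN1 cells alike numbered 14: CEBPB, PSAT1, MTHFD2, SLC7A1, SLC1A5, and the synthetases GARS, IARS, MARS, NARS, TARS, VARS, WARS, YARS and EPRS. Of all genes tested in the 3 lines, 10.2% were lower in each. The 3 comparisons share no libraries. The count rested on the MKN1 calls: it was 5 without replicate 1 and 4 without replicate 3 of the MKN1 libraries alone, and 7 with library size alone in MKN1 cells. MARS, MTHFD2, SLC1A5 and VARS were among the members in each of these counts.

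In Hs746T cells, 0 of 38 members were called after afatinib at 24 h and 0 at 4 h, as were 0 of the 18667 genes tested. At an unadjusted p below 0.05 there were 2 members at 24 h and 3 at 4 h by edgeR, and DESeq2 also called 0 at each time. VARS was at 336, 290 and 297 CPM untreated and at 317, 285 and 322 CPM after 24 h of afatinib, overlapping groups with a log2 fold change of 0.00 (95% interval −0.17 to 0.17). The intervals of SLC7A1 (−0.43 to 0.43) and MTHFD2 (−0.31 to 0.42) did not reach the changes measured in NCI-N87 cells. PSAT1, at 0.255 to 0.882 CPM untreated, had a wide interval (−1.47 to 1.92). By the interaction test at 24 h, the response was lower than in Hs746T cells for 31 members in NCI-N87, 16 in MKN7 and 2 in MKN1 cells. It was higher for 1 member, in MKN7 cells. Member medians of the difference were −0.96, −0.45 and −0.29, against 0.00, 0.01 and −0.01 for all genes. The shares of all genes called in these tests are not given here, and the replicate block was not fitted for them. With the replicate block 4 members were higher at 24 h (0.171% of all genes), ASNS (0.44), PHGDH (0.38), SLC3A2 (0.30) and SLC7A11 (0.28), and at 4 h 9 were higher and 4 lower (10.3% and 8.29% of all genes).

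**Figure D4:**
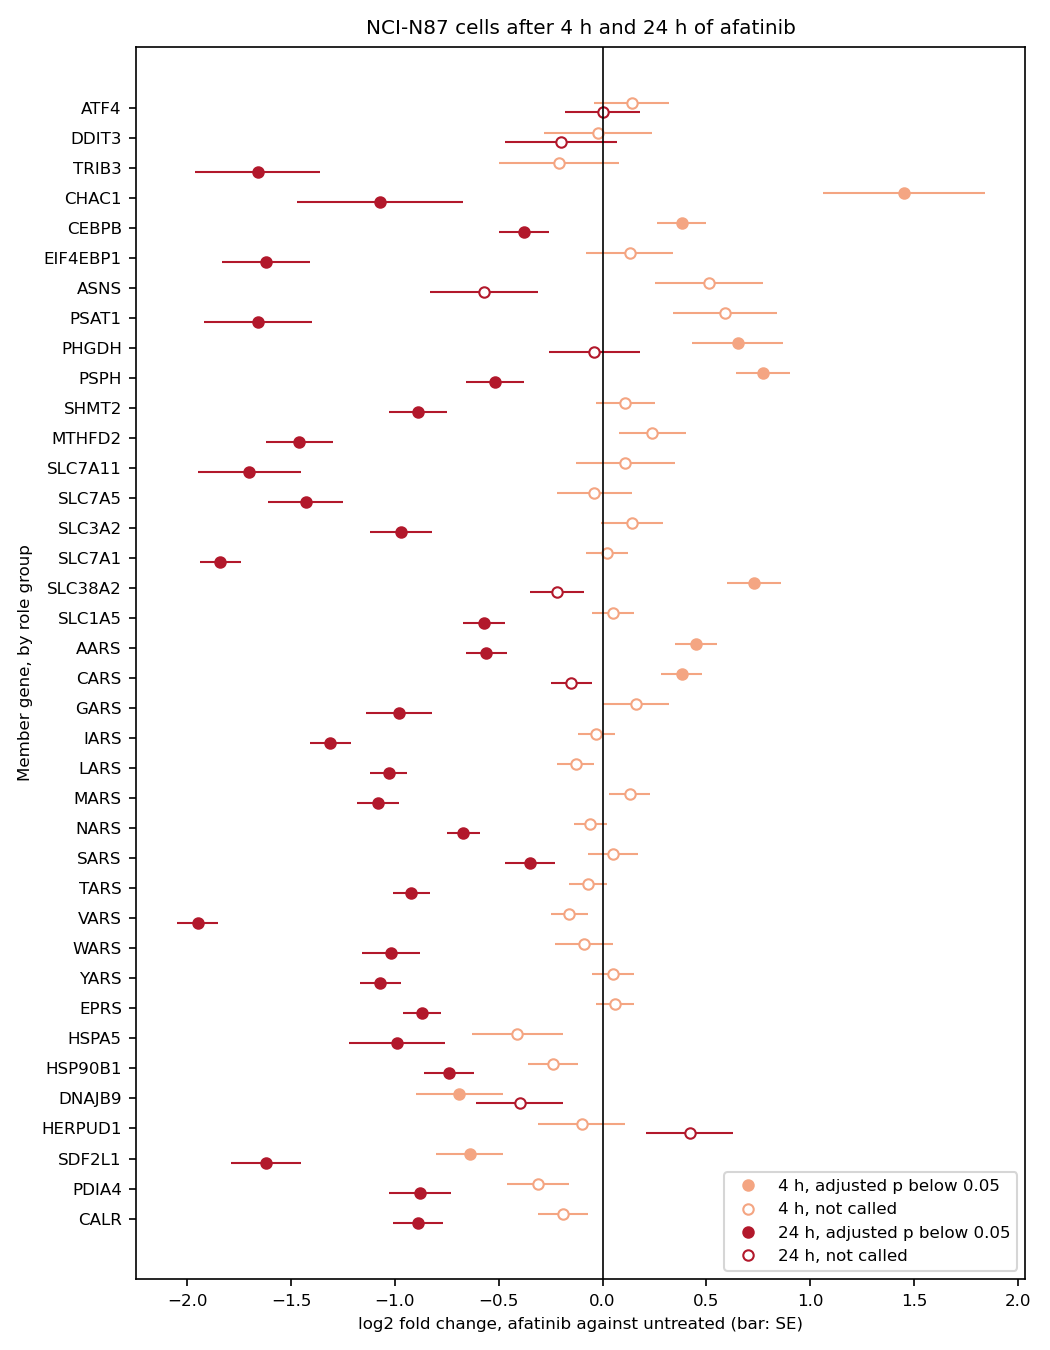
Log2 fold change of afatinib against untreated NCI-N87 cells for each of the 38 tested members at 4 h (light) and 24 h (dark), with the SE as a bar and filled points where the adjusted p is below 0.05. CHAC1 stands at 1.45 at 4 h and −1.07 at 24 h, and of the synthetases AARS (0.45) and CARS (0.38) are called at 4 h.

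After 4 h of afatinib, 7 members were higher and 2 lower in NCI-N87 cells, against 9.06% and 9.10% of all genes, with a member median of 0.05. The higher members were CHAC1 (1.45), PSPH (0.77), SLC38A2 (0.73), PHGDH (0.65), AARS (0.45), CEBPB (0.38) and CARS (0.38), and the lower were the ER members DNAJB9 (−0.69) and SDF2L1 (−0.64). CHAC1 was at 19, 35.7 and 27.7 CPM untreated and at 57.3, 60.9 and 107 CPM after afatinib (adjusted p = 0.0109). PSPH, the last enzyme of serine synthesis, was at 28, 36.1 and 29.2 CPM and at 47.8, 47.1 and 63.6 CPM (adjusted p = 0.000269). SLC38A2 was at 285, 352 and 240 CPM and at 461, 498 and 488 CPM (adjusted p = 0.000262). The groups of these 3 members did not overlap. ATF4 was at 414, 567 and 576 CPM and at 514, 513 and 684 CPM, overlapping groups (0.14, adjusted p = 0.695). The replicate block gave 10 higher and 5 lower (16.3% and 16.6% of all genes), adding ASNS (0.51), PSAT1 (0.58) and MTHFD2 (0.25) to the higher members and HSPA5 (−0.38), HSP90B1 (−0.23) and PDIA4 (−0.30) to the lower. The count of 9 was 3 without replicate 1 and 4 without replicate 3. CHAC1 was not called without replicate 1 (adjusted p = 0.0691) or replicate 2 (adjusted p = 0.0589), whereas PSPH and SLC38A2 were called without any 1 replicate.

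In the separate libraries of Tra+Afa against Tra at 4 h, 6 members were higher and 2 lower in NCI-N87 cells (9.51% and 10.1% of all genes). The difference between the 24 h and 4 h responses was tested in a contrast added after the data had been seen. In NCI-N87 cells 31 members had a lower response at 24 h and 0 a higher one (20.5% and 15.3% of all genes), and on library size alone 28 and 0 (13.6% and 21.3%). CHAC1 differed most (−2.52 ± 0.56, adjusted p = 0.00137), followed by PSAT1 (−2.25), SLC7A1 (−1.86) and SLC7A11 (−1.81). CHAC1, CEBPB (−0.76), PSPH (−1.29) and AARS (−1.01) were called higher at 4 h and lower at 24 h.

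In MKN7 cells at 4 h, 3 members were higher and 5 lower, against 10.1% and 12.1% of all genes. The members' shares were thus near those of all genes. Higher were SLC38A2 (0.93 ± 0.22), DDIT3 (0.53) and HERPUD1 (0.48 ± 0.07, adjusted p = 6.19e-05), and lower were TRIB3 (−0.83 ± 0.15), SLC1A5 (−0.56), MTHFD2 (−0.51), SLC7A1 (−0.30) and VARS (−0.28). SLC38A2 was the 1 member called higher at 4 h in both lines, in MKN7 cells not without replicate 2 (adjusted p = 0.0672). The count of 8 was 16 with the replicate block (17.7% of all genes higher and 20.7% lower) and 5, 4 and 5 without replicate 1, 2 and 3. The 24 h response was lower than the 4 h response for 13 members and higher for 2 (9.28% and 8.68% of all genes), SLC3A2 (0.42) and CALR (0.58). That count of 15 was 33 with the replicate block (17.6% of all genes higher and 19.1% lower), 2 without replicate 2 and 9 without replicate 3. In MKN1 cells, 0 members were called at 4 h of afatinib by edgeR and 0 by DESeq2 (1.27% of all genes higher and 2.41% lower by edgeR), with 1 at an unadjusted p below 0.05, and with the replicate block TRIB3 (−0.36) and SLC1A5 (−0.25) were lower, as were 7.63% of all genes.

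EGF, a ligand of EGFR, and cetuximab, which blocks it, were compared with the same untreated MKN1 libraries, so their values stand side by side without a test between them. After 24 h of EGF, 16 members were higher and 1, SLC38A2 (−0.29), was lower, against 17.3% and 18.5% of all genes. Higher were 5 of 7 ER members, 5 of 13 synthetases, 2 transporters, 2 enzymes and 2 regulators. On library size alone, which moved the median of all genes from −0.05 to −0.24, 7 were higher and 4 lower (8.19% and 31.6% of all genes), and with the replicate block 24 and 4 (24.7% and 26.4%). Without replicate 1, 7 members were called. After 24 h of cetuximab, 14 members were lower, 7 of them synthetases, and 1, DNAJB9 (0.33), was higher, against 5.91% and 4.92% of all genes. Without replicate 1, 4 were called, and without replicate 3, 2.

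SLC1A5 was at 179, 191 and 166 CPM with EGF and at 75.5, 73 and 68.8 CPM with cetuximab, against 96.7 to 124 CPM untreated. Its log2 fold change was 0.75 ± 0.09 with EGF (adjusted p = 8.23e-08) and −0.59 ± 0.09 with cetuximab (adjusted p = 8.59e-05), so the EGF libraries lay above and the cetuximab libraries below the untreated ones. VARS was at 281, 297 and 261 CPM with EGF (0.47) and at 176, 162 and 154 CPM with cetuximab (−0.35). SLC7A1 and MTHFD2 had 0.51 and 0.40 with EGF and −0.42 and −0.52 with cetuximab. HSPA5 was at 814, 904 and 829 CPM with EGF, above 620 to 685 CPM untreated (0.42 ± 0.07), and at 623, 543 and 642 CPM with cetuximab, overlapping the untreated libraries (−0.11, adjusted p = 0.353). With EGF and cetuximab together for 24 h, 8 members were higher and 0 lower than in untreated cells (9.17% and 9.43% of all genes). Against EGF alone at 24 h, 0 were called by edgeR (0.212% of all genes higher and 0.434% lower), with 1 at an unadjusted p below 0.05. At 4 h, 1 member was lower with both than with EGF alone, and 0 were called against untreated cells by edgeR. The shares of all genes for the combination at 4 h are not given here. The replicate block was not fitted for the combination.

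At 4 h in MKN1 cells, EGF raised 1 member, CEBPB (0.83 ± 0.08, adjusted p = 1.53e-08), against 4.37% of all genes higher and 2.45% lower. On library size alone 2 more were lower, AARS and PSPH (5.82% of all genes), and with the replicate block 4, those and CHAC1 and HERPUD1 (7.18%). Cetuximab called 0 members at 4 h by edgeR and 0 by DESeq2 (0.288% of all genes higher and 1.15% lower by edgeR), with 2 at an unadjusted p below 0.05, and with the replicate block TRIB3 (−0.36), CEBPB (−0.24) and SLC1A5 (−0.28) were lower, as were 4.71% of all genes. In Hs746T cells, 0 members were called for EGF, cetuximab or their combination against untreated cells at both times by edgeR. The same held for all genes, with 0 of 18667 called in each comparison. Of the members, 0 had an unadjusted p below 0.05. The replicate block, which added calls for afatinib in this line, was not fitted for these comparisons.

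**Figure D5:**
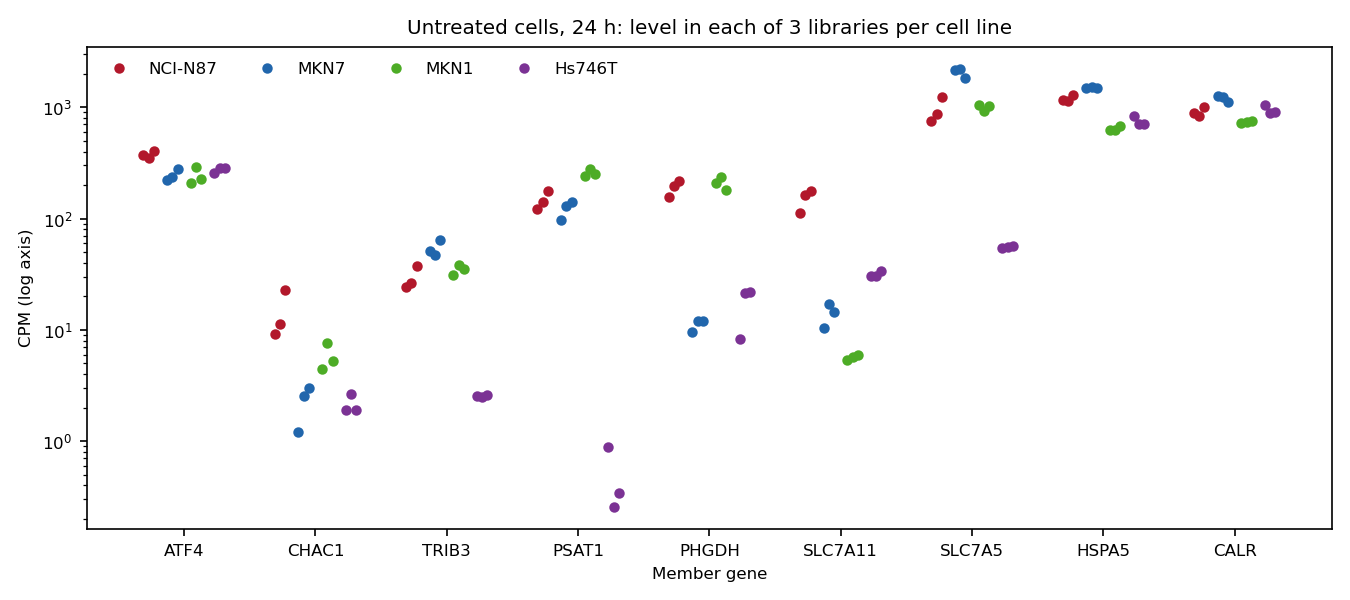
Levels in CPM (log axis) of 9 members in untreated cells at 24 h, with 1 point for each of 3 libraries in each of the 4 lines. ATF4 lies between 209 and 406 CPM in all libraries, while PSAT1 is at 0.255 to 0.882 CPM in Hs746T cells and at 97 CPM or more in the other lines.

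In untreated cells at 24 h, 25 to 31 of the 38 members (65.8% to 81.6%) differed in each of 6 pairs of lines, against 64.5% to 68.6% of all genes. Between MKN1 and Hs746T cells the members' share, 65.8%, was below that of all genes, 68.6%. ATF4 was highest in NCI-N87 cells (375 ± 29.4 CPM, SD, n = 3), followed by Hs746T (275 ± 17.8 CPM), MKN7 (244 ± 28.4 CPM) and MKN1 cells (241 ± 41.9 CPM). NCI-N87 cells differed from Hs746T (adjusted p = 0.0319), MKN7 (adjusted p = 0.00316) and MKN1 cells (adjusted p = 0.00222), and the other 3 lines did not differ from each other beyond their spread. CHAC1 was at 14.4 ± 7.41 CPM in NCI-N87, 5.74 ± 1.6 CPM in MKN1, 2.24 ± 0.929 CPM in MKN7 and 2.16 ± 0.439 CPM in Hs746T cells, the last pair not differing (adjusted p = 0.885).

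PSAT1 was at 255 ± 19.5 CPM in MKN1, 147 ± 27.7 CPM in NCI-N87, 123 ± 23.1 CPM in MKN7 and 0.493 ± 0.339 CPM in Hs746T cells, and the NCI-N87 and MKN7 levels did not differ (adjusted p = 0.52). PHGDH was at 207 ± 28.3 CPM in MKN1 and 189 ± 30.4 CPM in NCI-N87 cells, a pair that did not differ (adjusted p = 0.785), and at 17.2 ± 7.74 CPM in Hs746T and 11.2 ± 1.39 CPM in MKN7 cells, which did not differ either (adjusted p = 0.202). SLC7A11 was at 151 ± 35.4 CPM in NCI-N87, 31.5 ± 1.71 CPM in Hs746T, 14 ± 3.44 CPM in MKN7 and 5.69 ± 0.281 CPM in MKN1 cells, and each neighbour in this order differed. SLC7A5 was highest in MKN7 cells (2066 ± 203 CPM) and lowest in Hs746T cells (55.2 ± 0.975 CPM), and did not differ between NCI-N87 and MKN1 cells (adjusted p = 0.726). TRIB3 was at 2.54 ± 0.0489 CPM in Hs746T and 53.9 ± 9.14 CPM in MKN7 cells. Per kilobase of exon, CALR had the highest level of the ER members in all 4 lines (272 to 446 CPM per kilobase) and DNAJB9 the lowest (2.51 to 5.83 CPM per kilobase).

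Further genes of these pathways were taken from lists written for their function, and the counts are of the genes tested. In full the lists held 10 cytosolic genes, 17 mitochondrial synthetases, 20 ER genes, 24 tied to ATF4 and 8 of eIF2alpha and the sensors. After 24 h of afatinib in NCI-N87 cells, 8 of 9 other genes of cytosolic synthetases and their scaffold were lower and 1 higher, against 31.0% and 31.5% of all genes, with the largest changes in the phenylalanine synthetase subunits FARSB (−1.97 ± 0.16) and FARSA (−1.44 ± 0.10) and the scaffold protein AIMP2 (−0.98 ± 0.16). In MKN7 cells 8 were lower and 1 higher, against 25.0% and 26.6% of all genes, FARSB with −1.03. Of 15 mitochondrial synthetases, 8 were lower and 1 higher in NCI-N87 cells, among them NARS2 (−1.22) and EARS2 (−1.18), and 9 lower and 0 higher in MKN7 cells. Of 19 other ER chaperone and unfolded protein response genes, 12 were lower and 0 higher in NCI-N87 cells, among them MANF (−1.31), HYOU1 (−1.14) and PDIA6 (−1.02). In MKN7 cells 3 of the 19 were lower, a smaller share than the 25.0% of all genes, and 0 higher, and MANF had 0.15 (adjusted p = 0.337).

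Of 22 other genes tied to ATF4, 12 were lower and 4 higher in NCI-N87 cells, again against 31.0% and 31.5% of all genes. The largest changes were upward, in NUPR1, a stress-induced chromatin protein (3.97 ± 0.38), KLHL24 (2.64 ± 0.20) and DDIT4, an inhibitor of mTORC1 (2.37 ± 0.36). In MKN7 cells 10 were lower and 2 higher (25.0% and 26.6% of all genes), with KLHL24 at 1.83 and DDIT4 at −0.95. Of 7 genes of eIF2alpha, its kinases and the ER stress sensors, 5 were lower and 0 higher in NCI-N87 cells, among the lower ones EIF2S1, which encodes eIF2alpha (95% interval of the log2 fold change −1.72 to −1.28), EIF2AK4, the sensor of uncharged tRNA (−0.52), and EIF2AK2 (−0.39). EIF2AK3, the ER stress kinase, named after its values were seen, had −0.25 in NCI-N87 cells (adjusted p = 0.13) and was higher in MKN7 cells (0.44, adjusted p = 3.31e-05). In these bulk cultures, fewer cells with a high level and less RNA per cell cannot be told apart.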

How the data were processed

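RNA of MKN1, MKN7, NCI-N87 and Hs746T cells was sequenced from poly-A libraries of a directional kit, in biological triplicates by the study's account. The submitters' processing notes name Trim Galore, STAR and hg38. Versions, the counter, its strand setting and the annotation release are not given in the sources used here. The authors deposited raw counts per Ensembl gene identifier, 1 file per library. Symbols came from GENCODE 29, and the 8404 identifiers without a name there held 0.0422% of the counts. Floors and intervals on counts cover counting error only.

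Counts were tested in R 4.3.3 with edgeR 4.0.16 (glmQLFit and glmQLFTest, TMM, filterByExpr set to 10 for the minimum and 15 for the total), with all libraries of a line in 1 fit, and interactions and untreated lines compared in 1 fit of all libraries. P-values were adjusted by Benjamini-Hochberg over all genes tested. DESeq2 1.42.0, scaling by total counts, testing unfiltered genes, a floor of 10 counts per gene and library, only the compared groups, a replicate block, leaving out each replicate and a limit of 1 on the log2 fold change were alternatives. The edgeR and DESeq2 fits were run on simulated data with known changes in few genes and no pairing of libraries. That run does not test the scaling or the replicate block. Python 3.11.15, pandas 2.3.3 and matplotlib 3.10.9 made the tables and figures.

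The members and lists were chosen with earlier results of these data known. Values in every library were given for ATF4, for up to 6 called members of largest change in each 24 h afatinib comparison and for at least 1 member per role group, and for some other members that were chosen after their values were seen. Of each other list, up to 3 genes of largest change were named. A gene of these lists is not reported here by name. Replicate numbers were checked for pairing through the correlation of deviations from group means between same-numbered libraries. Every correlation was over 0.1 in 45 of 48 comparisons (lowest 0.259 in those, −0.0599 overall), so the numbers were taken to pair libraries there. The block was fitted for Afa against untreated and for EGF and Cet in MKN1 cells. It was also fitted for Tra+Afa against Tra at 24 h in NCI-N87, MKN7 and MKN1 cells. The differences between responses had it too, except those against Hs746T cells. For these, the blocked value stands beside a result where it changed a call or moved a count by over 1.5 times. All other comparisons, such as Tra against untreated or untreated lines, have no blocked value. Replicates differed beyond sampling noise in all 132 pairs. Some members have processed pseudogenes, with which their reads may be shared.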

Additional observations from a re-analysis of the deposited data

Results flagged for a closer look

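Responses to afatinib that differed between NCI-N87, MKN7 and MKN1 cells or between times, by a test of the difference itself, are listed here. The tests against Hs746T cells stand above. At 24 h, 16 of 38 members differed between NCI-N87 and MKN7 cells (21.4% of all genes), 25 between NCI-N87 and MKN1 cells (28.0%), and 3 between MKN7 and MKN1 cells (7.61%, so the members' share was near that of all genes). Between 24 h and 4 h, 31 members differed in NCI-N87 cells (35.8% of all genes) and 15 in MKN7 cells (9.28% lower and 8.68% higher). The members with opposite called directions in NCI-N87 and MKN7 cells at 24 h were SLC7A5, with a difference of −1.71 on the log2 scale, SLC3A2 with −1.24, HSPA5 with −1.21, HSP90B1 with −0.93 and CALR with −1.45. In MKN7 cells, of these 5, CALR alone kept its higher call whichever replicate was left out. The members called in opposite directions at 4 h and 24 h in NCI-N87 cells were CHAC1, with a difference of −2.52, CEBPB with −0.76, PSPH with −1.29 and AARS with −1.01. What lies behind these differences was not tested.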

How the results depend on the processing

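Of 6835 log2 fold changes of single members under the alternatives, 6215 kept their direction and side of the threshold, 361 lost and 258 gained a call, and 1 turned: NARS after 24 h of EGF in MKN1 cells, at 0.00 on library size alone (adjusted p = 0.978). The replicate block, which removed 0 calls and added 167, gave these counts of members called: Hs746T Afa 4 at 24 h and 13 at 4 h, MKN1 Afa 2 at 4 h, MKN1 EGF 28 at 24 h and 5 at 4 h, MKN1 Cet 3 at 4 h, MKN7 and NCI-N87 Afa 16 and 15 at 4 h, 24 h against 4 h in MKN7 cells 33, MKN7 against MKN1 23 and NCI-N87 against MKN7 29. In MKN1 Cet and MKN1 Tra+Afa against Tra at 24 h, not every correlation of same-numbered libraries was over 0.1 (lowest −0.0599 and −0.0201). There the block gave 28 and 30, and the shares of all genes for these counts are not given here. Library size alone gave 10 for MKN1 Afa, 8 for Cet, 11 for EGF and 11 for Tra+Afa against Tra at 24 h, and 3 for EGF at 4 h. It also shifted the split of all genes towards higher calls where no split stands above: 20.6% lower and 43.5% higher for NCI-N87 Tra+Afa against Tra (members 28 and 1), 6.91% and 11.1% for NCI-N87 Afa at 4 h (2 and 7), 8.15% and 14.1% for MKN7 Afa at 4 h (4 and 3), 3.57% and 7.23% for MKN1 Cet at 24 h (7 and 1) and 11.4% and 16.6% for NCI-N87 against MKN1 (23 and 1). No filter gave 9 for MKN1 Afa and 9 for Cet at 24 h. Only the compared groups gave 6, 7 and 9 for MKN1 Afa, Cet and EGF at 24 h, and 1 for MKN7 against MKN1, a difference for which at least 10 counts gave 5 and DESeq2 6.

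With a limit of 1 on the log2 fold change, 24 h counts were 15 for NCI-N87 Afa, 18 for NCI-N87 Tra+Afa against Tra, 5 for MKN7 Afa, 1 for MKN7 Tra+Afa against Tra, and 0 for MKN1 Afa, Cet, EGF and Tra+Afa against Tra; 4 h counts were 1 in NCI-N87 cells and 0 for MKN7 Afa and MKN1 EGF; the differences gave 8 (NCI-N87 against MKN7), 8 (NCI-N87 against MKN1), 1 (MKN7 against MKN1), 18 (times, NCI-N87) and 3 (times, MKN7). Leaving out 1 replicate gave 27 to 31 for NCI-N87 Afa at 24 h, 3 to 6 at 4 h and 30 to 31 for Tra+Afa against Tra; 24 to 25 for MKN7 Afa at 24 h, 4 to 5 at 4 h and 18 to 20 for Tra+Afa against Tra; 4 to 21, 2 to 16, 7 to 19 and 6 to 21 for MKN1 Afa, Cet, EGF and Tra+Afa against Tra at 24 h; 0 for MKN1 Afa and Cet at 4 h, 1 for EGF at 4 h and 0 for Hs746T; 13 to 17, 17 to 23 and 0 to 1 for NCI-N87 against MKN7, NCI-N87 against MKN1 and MKN7 against MKN1; and 27 to 29 and 2 to 13 for the times in NCI-N87 and MKN7 cells. The count of 14 members lower in 3 lines was 7 on library size alone, 7 unfiltered and 5 with only the compared groups in each line, and 4 to 15 with 1 replicate left out. The cause of these changes was not tested. Counts in this section without a share of all genes show only how the member counts moved with the setting. Members at a few CPM, such as DDIT3, and groups of 3 libraries limit the precision.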
